A study of Mus musculus with 12 samples.

Results

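The genes described here are 9 laminin chain genes, Lama1 to Lama5, Lamb1 to Lamb3 and Lamc1, out of 19938 genes measured. They were taken by symbol, as rows of the array annotation with exactly 1 gene symbol, and each of the 9 had 1 such row (transcript cluster). RNA came from pools of early tumor islets of RIP1-Tag2 mice on the C57BL/6 background, aged 8 weeks, whose beta cells express the SV40 T antigen under the rat insulin promoter. There were 6 arrays of angiogenic and 6 arrays of non angiogenic islet pools, both from transgenic mice and sorted by appearance. Whether each array held a separate pool is not given in the sources used here. Nor is the number of mice or islets in a pool, or whether pools came from separate mice. The p-values therefore refer to the spread from array to array, which may be technical. A legend of the study describes averages over a pair of separate profiling experiments without saying which arrays belong to which. If arrays of an experiment share mice or handling, the 6 arrays of a group are not 6 independent samples, and the SDs, intervals and p-values given here would not cover the spread between experiments. The study also placed Lama4, Lama2 and Lamc1 in a signature that it chose on these arrays, so their direction is not independent evidence. For the α4 chain the study also reported tissue staining of the protein, which it describes as strong and perivascular in angiogenic islets.

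Laminins are glycoproteins around which basement membranes are built. Each molecule joins an α, a β and a γ chain, and each chain is the product of its own gene. The α chain carries most of the binding sites for cell surface receptors and differs most between tissues, while the β1 and γ1 chains are shared by many laminins. In vessels, the α4 chain (Lama4) is made by endothelial cells and pericytes and the α5 chain (Lama5) joins it as vessels mature. The α3 and β3 chains (Lama3, Lamb3) belong to the laminin that anchors stratified and glandular epithelia, and α1 (Lama1) to embryonic and some adult epithelia. The α2 chain (Lama2) is best known from muscle and peripheral nerve, and β2 (Lamb2) from the neuromuscular junction, the kidney glomerulus and vessel walls.

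Values are log2 levels after RMA (background correction, normalization and probe summary), so a difference of 1 is a 2-fold change. The arrays of replicates 1 to 3 and of replicates 4 to 6 stood apart along the first principal component in both groups, and the level of 36.9% of all genes differed between these sets (limma, adjusted p under 0.05). Whether these sets are the profiling experiments is not given in the sources used here. Each set holds 3 arrays of each group, so the comparisons of the laminin genes are also given within the sets. Islet hormone and transcription factor markers were bright in both groups. Of 8 beta cell markers measured, Ucn3 was lower in angiogenic islets (log2 difference -0.25, limma adjusted p = 0.029) and none was higher. With the array set as a term in the fit, 3 were lower, namely Ucn3, Nkx6-1 (limma adjusted p = 0.018) and Slc2a2 (limma adjusted p = 0.041). The mean log2 level of the 8 markers was 11.70 ± 0.06 in angiogenic arrays and 11.80 ± 0.11 in non angiogenic arrays (SD, n = 6 each). Since whole islets were measured, a larger number of cells of a type and more RNA per cell cannot be told apart in any of the values that follow.

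Of the 9 laminin chain genes, 6 were up-regulated in angiogenic islets, 3 did not pass and none was lower. A gene passed at an adjusted p under 0.05 in limma, a linear model fitted to all genes, and of all genes 3.55% passed as higher and 0.948% as lower. The genes that rose were the vascular chain gene Lama4, the muscle and nerve chain gene Lama2, the γ1 chain gene Lamc1, the β chain genes Lamb1 and Lamb2 and, with the smallest change, Lama5. The genes that did not pass were Lama1, Lama3 and Lamb3. Their chains are known from epithelia, as is the α5 chain, whose gene Lama5 passed. For each of the 6 genes that rose, all angiogenic arrays lay above all non angiogenic arrays, which was so for 2.85% of all genes. The median log2 difference was 0.47 over the 9 genes and -0.02 over all genes.

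**Figure D1:**
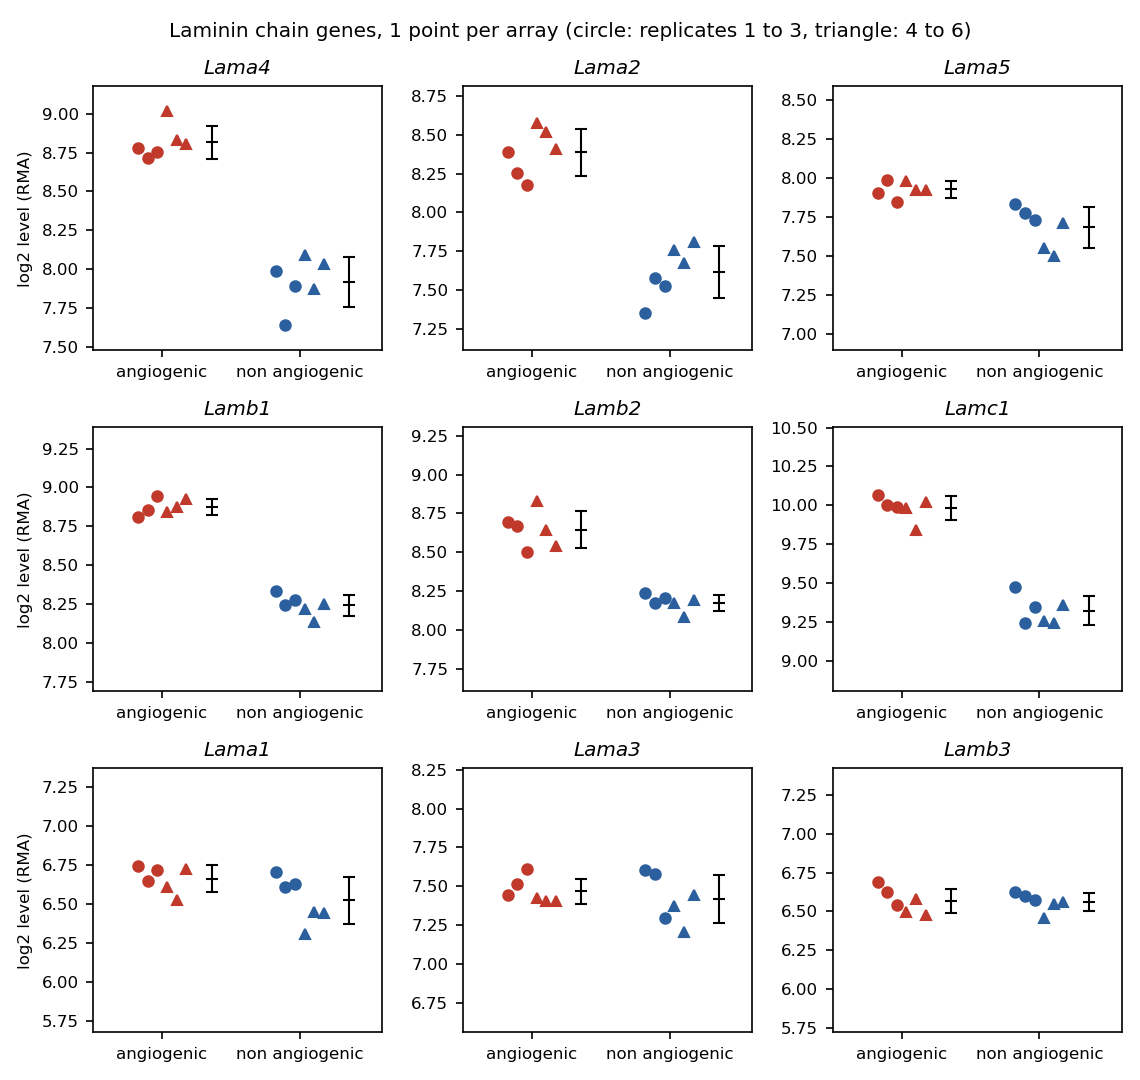
Log2 level (RMA) of the 9 laminin chain genes, 1 point per array, in angiogenic (red, left) and non angiogenic (blue, right) islets, where circles are replicates 1 to 3, triangles are replicates 4 to 6 and black bars the mean and SD of 6 arrays. All panels span the same log2 range. The groups do not overlap in the upper 6 panels and overlap for Lama1, Lama3 and Lamb3.

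Lama4 showed the largest difference among the chains. Its log2 level ran from 8.71 to 9.02 with a median of 8.79 in angiogenic islets, against 7.64 to 8.09 with a median of 7.94 in non angiogenic islets. The lowest angiogenic array was replicate 2 and the highest non angiogenic array was replicate 4, and a gap separated them. The means were 8.82 ± 0.11 for angiogenic and 7.92 ± 0.16 for non angiogenic arrays (SD, n = 6 each), and their ratio was 1.86 with a 95% interval of 1.67 to 2.08 (limma adjusted p = 4.65e-06). With all 19938 genes ordered from the largest rise to the largest fall, Lama4 was gene 61.

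Lama2 followed. Its log2 level ran from 8.18 to 8.58 with a median of 8.40 in angiogenic islets, against 7.35 to 7.81 with a median of 7.63 in non angiogenic islets. The ratio was 1.71 with a 95% interval of 1.5 to 1.94 (limma adjusted p = 6.17e-05). Within both groups the arrays of replicates 4 to 6 were the brighter ones for Lama2, by 0.25 on the log2 scale (limma adjusted p = 0.0032 for the array set), so that the order of the arrays followed the set inside each group while the groups stayed apart. Of 6 Schwann cell markers measured, a cell type in which the α2 chain is prominent, none passed the test. Their mean level ranged from 6.49 to 6.57 in angiogenic and from 6.44 to 6.59 in non angiogenic islets. Their part in the level of Lama2 was not tested.

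Lamc1 encodes the γ1 chain, the common γ partner of the α chains 1, 2, 4 and 5. Its log2 level ran from 9.84 to 10.07 in angiogenic islets with a median of 9.998, against 9.24 to 9.48 with a median of 9.30 in non angiogenic islets. The arrays of both groups were tightly spaced, and the lowest angiogenic array, replicate 5, was still well above the highest non angiogenic array. The ratio was 1.58 with a 95% interval of 1.46 to 1.72 (limma adjusted p = 4.40e-06).

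Of the β chain genes, Lamb1 and Lamb2 rose and Lamb3 did not pass. Lamb1, the gene of the widespread β1 chain, ran from 8.81 to 8.94 with a median of 8.86 in angiogenic islets, against 8.13 to 8.34 with a median of 8.25 in non angiogenic islets. The groups were far apart against SDs of 0.05 in angiogenic and 0.07 in non angiogenic islets, and the adjusted p was the lowest of the 9 (ratio 1.55, 95% interval 1.45 to 1.66, limma adjusted p = 1.31e-06). Lamb2 ran from 8.50 to 8.83 with a median of 8.66 in angiogenic islets, against 8.08 to 8.24 with a median of 8.18 in non angiogenic islets (ratio 1.39, 95% interval 1.27 to 1.51, limma adjusted p = 1.23e-04), and its groups did not overlap. Lamb3, a β chain gene of epithelia, ran from 6.48 to 6.69 with a median of 6.56 in angiogenic islets, against 6.46 to 6.62 with a median of 6.57 in non angiogenic islets. The arrays of the groups were interleaved, and the ratio of 1.01 had a 95% interval of 0.94 to 1.08 (limma adjusted p = 0.97).

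Lama5 showed a small rise. Its log2 level ran from 7.85 to 7.99 with a median of 7.92 in angiogenic islets, against 7.499 to 7.83 with a median of 7.72 in non angiogenic islets. The groups were adjacent, with angiogenic replicate 3 just above non angiogenic replicate 1. The ratio was 1.18 with a 95% interval of 1.08 to 1.29 (limma adjusted p = 0.031). This call did not hold in 8 of the 12 fits without 1 array, where adjusted p reached 0.075.

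Lama1 and Lama3 did not pass the test. Lama1 ran from 6.52 to 6.74 with a median of 6.69 in angiogenic islets, against 6.30 to 6.70 with a median of 6.53 in non angiogenic islets, and the groups overlapped (ratio 1.10, 95% interval 0.99 to 1.22, limma adjusted p = 0.39). Lama3 ran from 7.40 to 7.61 with a median of 7.43 in angiogenic islets, against 7.21 to 7.61 with a median of 7.41 in non angiogenic islets, where replicates 1 and 2 lay above 5 of the 6 angiogenic arrays (ratio 1.03, 95% interval 0.93 to 1.15, limma adjusted p = 0.85). Rises above 1.22-fold for Lama1, 1.15-fold for Lama3 and 1.08-fold for Lamb3 thus lay outside these intervals. All 3 transcript clusters were dimmer than the median gene, at brightness percentiles from 30.8 to 45.0, and the 6 that rose were brighter, at 50.8 to 82.4. RMA compresses weak signals, and 2.73% of the dimmer genes were called higher against 4.37% of the brighter genes. The part of brightness in the missing calls was not tested.

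**Figure D2:**
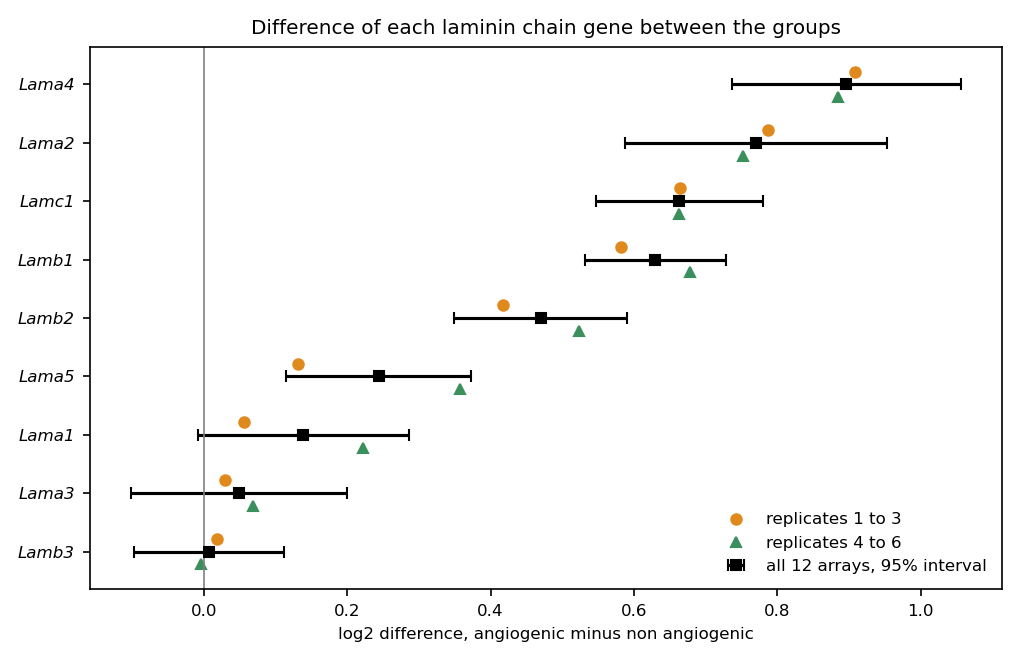
Log2 difference of each laminin chain gene, angiogenic minus non angiogenic islets, in all 12 arrays (squares with 95% intervals from limma), in replicates 1 to 3 (circles) and in replicates 4 to 6 (triangles). Lama4 is at 0.90, and the intervals of Lama1, Lama3 and Lamb3 include 0.

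By the size of the difference the chains had the same order in both sets of arrays, except that Lamb1 stood below Lamc1 in replicates 1 to 3 and above it in replicates 4 to 6. In replicates 1 to 3 alone, 5 of the 9 genes passed as higher (2.37% of all genes), and in replicates 4 to 6 alone 6 did (3.11% of all genes). Lama4 differed by 0.91 (SE 0.09) within replicates 1 to 3 and by 0.88 (SE 0.08) within replicates 4 to 6. Lamc1 differed by 0.66 in each set. Lama5 differed by 0.13 (SE 0.07) in replicates 1 to 3 (limma adjusted p = 0.37) and by 0.36 (SE 0.07) in replicates 4 to 6 (limma adjusted p = 0.024). Lama1 ran the same way without passing, at 0.06 and 0.22. A test of the difference between the sets (interaction of group and set in limma) called none of the 9 genes and 0.00502% of all genes, and its adjusted p was 0.77 for Lama5 and 0.79 for Lama1. For their overall level, 2 of the 9 genes differed between the sets (36.9% of all genes), Lama2 upwards and Lama1 downwards in replicates 4 to 6, both in angiogenic and non angiogenic islets.

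Whether Lama4 rose more than its fellow chains was tested on the log2 value of Lama4 minus that of another chain in each array. Only the shift of this value between the groups is read here, since probes of different genes are not equally sensitive. A constant offset between probes cancels in the shift, but unequal compression of differences does not. Lama1, Lama3 and Lamb3 were dimmer than Lama4, and the part of brightness in the gains on them was not tested. The shift was set against all ways to label 6 of the 12 arrays as angiogenic (two-sided exact permutation test), with p-values adjusted over 8 pairs. On the log2 scale Lama4 gained 0.89 on Lamb3, 0.85 on Lama3, 0.76 on Lama1, 0.65 on Lama5 and 0.43 on Lamb2. In all 5 pairs every angiogenic array lay above every non angiogenic array, and p was 0.0022, the smallest this test can give (adjusted p = 0.0035 in each, exact permutation test). Lamb3, Lama3 and Lama1 themselves differed by only 0.0075, 0.05 and 0.14, so the gains on them largely repeat the rise of Lama4. All 8 pairs share the Lama4 values and are not separate evidence. Lama4 was set as the reference with earlier results of these arrays known, and the study's signature holds it for its rise on them. The p-values of the pairs may therefore favour Lama4. Within the sets the gain on Lamb3 was 0.89 in both, and that on Lama5 was 0.78 within replicates 1 to 3 and 0.53 within replicates 4 to 6. Lama4 minus Lamb3 ran from 2.09 to 2.52 in angiogenic islets, against 1.04 to 1.63 in non angiogenic islets.

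The gain of Lama4 on the partner chains was smaller. It was 0.27 over Lamb1 (adjusted p = 0.0087, exact permutation test) and 0.23 over Lamc1 (adjusted p = 0.027, exact permutation test), and arrays of the groups overlapped in both. Within replicates 1 to 3 and within replicates 4 to 6 the gain over Lamb1 was 0.33 and 0.21, and that over Lamc1 was 0.24 and 0.22. The call against Lamc1 did not hold when non angiogenic replicate 2 was left out (adjusted p = 0.059) or replicate 3 of that group (adjusted p = 0.054, exact permutation tests). Lama4 and Lama2 were not distinguished, with a gain of 0.13 (adjusted p = 0.18, exact permutation test). Their difference ran from 0.31 to 0.57 in angiogenic islets and lay within the span of 0.06 to 0.64 in non angiogenic islets, where replicate 1 was the highest, and without that array the gain was 0.19 (adjusted p = 0.015, exact permutation test).

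**Figure D3:**
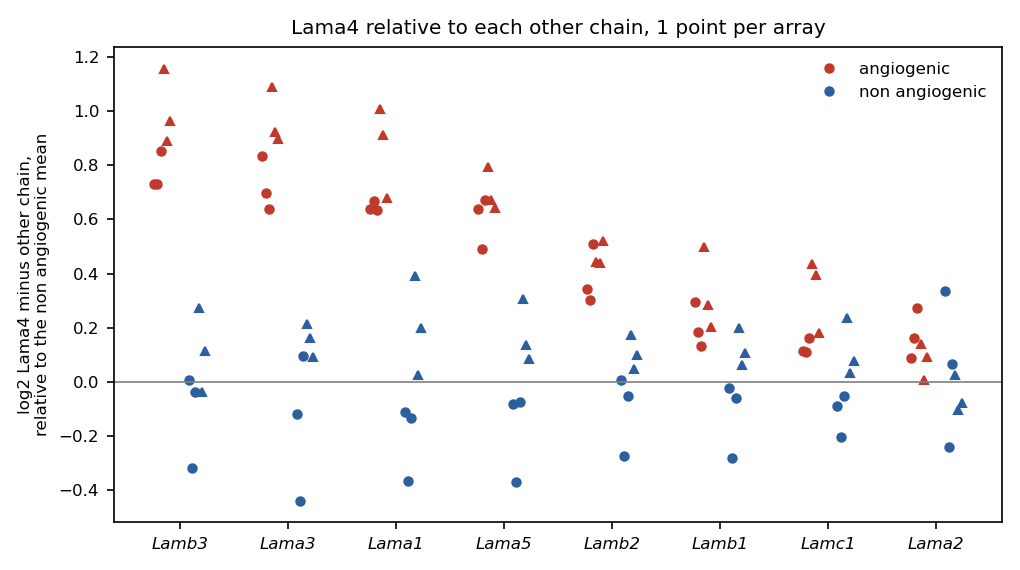
Log2 value of Lama4 minus that of each other chain, 1 point per array, shifted so that the mean of the non angiogenic arrays is 0, in angiogenic (red, left) and non angiogenic (blue, right) islets, where circles are replicates 1 to 3 and triangles are replicates 4 to 6. The shift runs from 0.89 for Lamb3 at the left to 0.13 for Lama2 at the right.

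The stretches before the annotated starts come from the RefSeq promoter table of GRCm38.p6, in which 5 of the 9 genes matched. Only bases before the outermost annotated start of each gene are printed. Lamb1, Lama5 and Lamb2 are shown because enough such bases remained for them. These genes rose in angiogenic islets by 1.55-fold, 1.18-fold and 1.39-fold, and a link of the sequences to the rise was not tested. Capitals mark matches to the GC box GGGCGG or to CCAAT on either strand, and the sequences lie at chr12:31265043-31265145 (plus strand), chr2:180225905-180226109 (minus strand) and chr9:108479612-108479846 (plus strand).
Lamb1: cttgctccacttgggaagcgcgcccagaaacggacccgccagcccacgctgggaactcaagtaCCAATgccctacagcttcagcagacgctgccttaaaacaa
Lama5: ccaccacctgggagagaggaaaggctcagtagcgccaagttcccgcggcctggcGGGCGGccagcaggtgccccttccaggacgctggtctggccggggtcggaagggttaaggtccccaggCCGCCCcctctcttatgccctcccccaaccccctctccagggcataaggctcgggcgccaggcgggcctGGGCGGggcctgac
Lamb2: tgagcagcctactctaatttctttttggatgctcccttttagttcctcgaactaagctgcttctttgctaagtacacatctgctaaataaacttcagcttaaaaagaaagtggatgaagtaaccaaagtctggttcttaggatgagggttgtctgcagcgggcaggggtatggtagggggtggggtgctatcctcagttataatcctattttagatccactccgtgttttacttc

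The 3 windows were unlike in base composition. Over the full 250 bases before the start listed in the table, which for these 3 genes reach past the outermost annotated start and so hold bases not printed, G and C made up 72.4% for Lama5, 62.0% for Lamb1 and 43.6% for Lamb2, against a median of 52.4% over all 32851 windows of the table. The window of Lama5 held 4 GC boxes, of which 3 lie in the printed stretch, and that of Lamb1 held 2, of which 0 lie there. The GC box was present in 32.7% of all windows. Lamb1 had 1 CCAAT, in the printed stretch, and 33.8% of windows held one. The window of Lamb2 matched none of the motifs searched, which also included TATAAA (12.4% of windows), CCGGAA (12%) and CACGTG (6.02%), all searched on either strand and none contained in another. The windows of Lama2, which rose, and of Lamb3, which did not pass, held no match either, at 47.2% and at 58.8% and 61.2% G and C for the pair of starts listed for Lamb3.

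Other components of basement membranes were described from a list of 12 genes, 8 of them collagen genes. Of these, 8 passed as higher (3.55% of all genes) and none as lower (0.948% of all genes). The median log2 difference of the list was 0.51. Nid1, the gene of nidogen 1, which links the γ1 chain to collagen IV, showed the largest rise at 1.98-fold (limma adjusted p = 1.60e-06), followed by Col15a1 at 1.87-fold and Col4a2 at 1.74-fold. Nid2, Hspg2 (perlecan), Col18a1, Col4a1 and Agrn (agrin) made up the rest. Apart from Agrn, the genes that passed are in the signature that the study chose on these arrays. Their direction is therefore not independent evidence. Among the collagen IV genes, the widespread chains Col4a1 and Col4a2 rose, while Col4a3, Col4a4, Col4a5 and Col4a6, chains of more specialised basement membranes, had log2 differences from -0.05 to 0.04 and did not pass. The call of Agrn did not hold in 7 of the 12 fits without 1 array, where adjusted p reached 0.062.

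Of 9 genes for laminin receptors and their partners, 4 were higher (3.55% of all genes) and none was lower. Mcam, an adhesion molecule of endothelial cells and pericytes that binds the α4 chain, rose most. Its mean log2 level was 10.16 ± 0.15 in angiogenic arrays and 9.40 ± 0.09 in non angiogenic arrays (SD, n = 6 each), and the ratio was 1.69 (limma adjusted p = 1.10e-05). Itga6, the integrin α6 subunit of the main laminin-binding integrins, was 1.28-fold higher (limma adjusted p = 4.22e-04) and Itga7 1.21-fold (limma adjusted p = 0.042). Itgb1 was 1.15-fold higher (limma adjusted p = 0.035). With each array centred on its median, Itga7 and Itgb1 no longer passed (limma adjusted p = 0.052 and 0.059), and leaving out 1 array ended their calls in 10 and 8 of 12 fits. Itgb4, the integrin subunit that pairs with α6 in epithelial hemidesmosomes, differed by 0.11 on the log2 scale (SE 0.07, limma adjusted p = 0.56), and Itga3 by -0.09 (SE 0.05, limma adjusted p = 0.47). Dag1 (dystroglycan), Bcam and Cd151 did not pass either. Of 5 netrin genes, whose products share the short arm domains of laminins, none passed. The largest difference was that of Ntng1, -0.13 (SE 0.07, limma adjusted p = 0.47). Lamc3, a further γ chain gene, was at 7.62 in both groups (log2 difference -0.0021, SE 0.08).

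**Figure D4:**
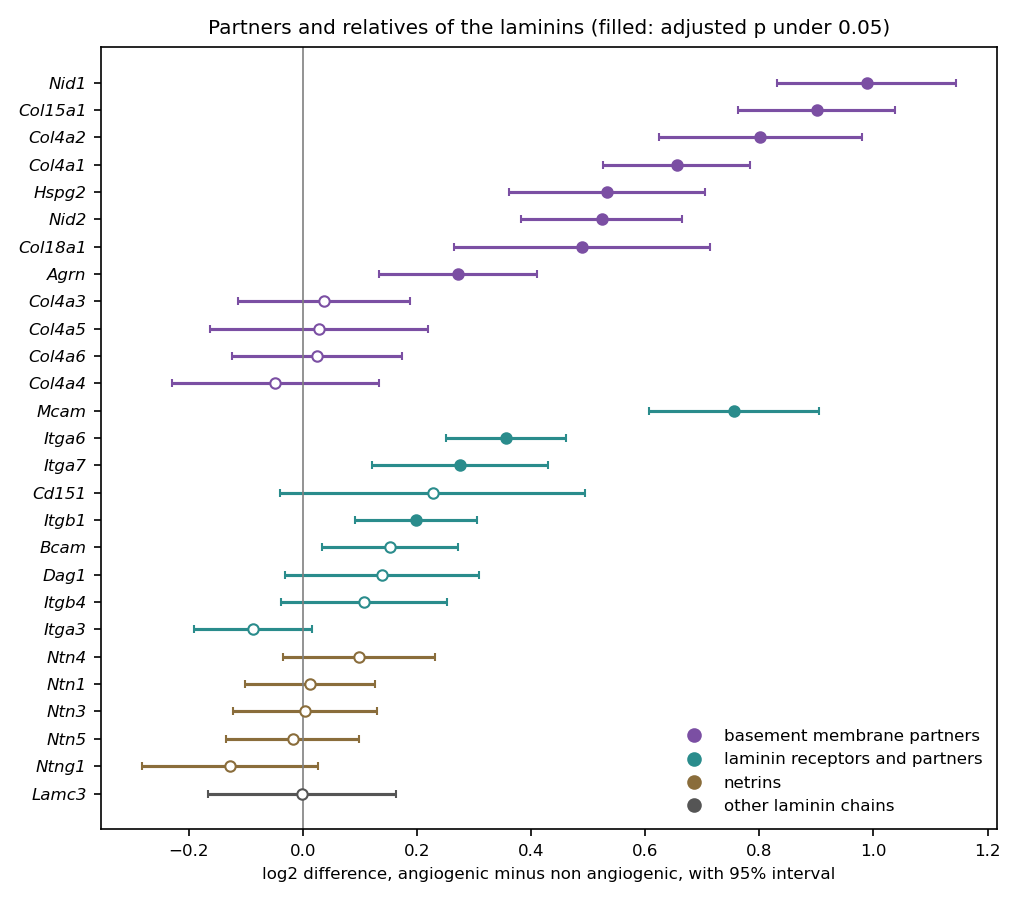
Log2 difference, angiogenic minus non angiogenic islets, with 95% intervals from limma over 12 arrays, for basement membrane partners, laminin receptors and partners, netrins and Lamc3, with filled points for an adjusted p under 0.05. Nid1 is at 0.99 and Mcam at 0.76, and the intervals of Col4a3 to Col4a6 and of the netrins include 0.

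Markers of stromal cells moved with the groups in the same direction as the 6 laminin genes. Against 3.55% of all genes, higher levels were found for 11 of 13 endothelial markers and 10 of 11 pericyte and smooth muscle markers. The same was so for 7 of 8 fibroblast markers and 6 of 6 macrophage markers, and none of these markers was lower. Their median log2 differences were 0.43, 0.68, 1.16 and 0.56, between which the 0.90 of Lama4 and the 0.77 of Lama2 lie. The mean endothelial level ranged from 9.52 to 9.67 in angiogenic and from 9.04 to 9.22 in non angiogenic islets, and that of pericytes and smooth muscle cells from 8.44 to 8.81 in angiogenic and from 7.78 to 7.96 in non angiogenic islets. The part of these cells in the rise of the laminin genes was not tested. Most of the fibroblast markers are in the signature that the study chose on these arrays. The study also reported several endothelial, pericyte and macrophage markers as higher on them. The direction of those markers is therefore not independent evidence. Of 6 duct cell markers none passed, and their mean was 7.46 ± 0.05 for angiogenic and 7.46 ± 0.03 for non angiogenic arrays (SD, n = 6 each). The mean of 11 acinar markers varied widely, from 7.49 to 9.90 in angiogenic and from 7.40 to 10.80 in non angiogenic islets. With that mean as a covariate the same count of 6 laminin genes was higher, against 760 of all 19938 genes, and the difference of Lama4 was 0.88.

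The genes most like Lama4 were sought by Pearson correlation over the 12 arrays, after the mean of each set of arrays was removed. They were the Notch ligand gene Jag1 (r = 0.99), the cytoskeletal linker gene Msn (0.99), Col1a2 (0.99), Fn1 (0.99) and Col6a3 (0.98). All 12 points share the shift between the groups, and with the group means removed as well r lay between 0.69 and 0.88. For Lamb3 the 5 nearest genes, Olfr539, Ccl25, Erfe, Slc34a2 and Ern2, reached r = 0.82 to 0.84, with log2 differences between the groups of -0.05 to 0.07. Both groups of 5 are the top of 19938 genes over only 12 arrays, where a high r can arise by chance. They are a description and were not tested.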

How the data were processed

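The values deposited by the authors are log2 levels of transcript clusters. The submitters' processing notes name RMA and Affymetrix Expression Console. Versions, build and joint or separate normalization of the arrays: not given in the sources used here. RMA brings arrays to a common distribution, so an overall change in RNA content cannot be seen. Array medians lay between 7.30 and 7.38, no 2 arrays were identical, and the number of arrays limits the precision. Groups and replicate numbers came from the sample titles. Of 35556 clusters, 21789 had exactly 1 gene symbol, and the brightest was kept per gene, which left 19938 genes. The symbols of all 9 members were checked by gene identifier against RefSeq. R 4.3.3 and limma 3.58.1 (lmFit, eBayes, two-sided, no covariates, Benjamini-Hochberg over all genes, threshold 0.05) were used, and the fit was tested on simulated data. Members, lists and tests were chosen with earlier results of these data known. Named genes are all members, in each list up to 3 of the largest called differences in each direction (or the largest where none passed), and the 5 most correlated genes of Lama4 and Lamb3. Nid2, Hspg2, Col18a1, Agrn, the collagen IV genes, Itgb1, Itga3, Itgb4, Dag1, Bcam, Cd151, Ucn3, Nkx6-1 and Slc2a2 were named after their values were seen. Alternatives were the methods' t-test, an intensity trend, quantile normalization, median centring, array weights, a filter on dim genes, means of clusters, labels permuted within the sets, replicate or set blocks, each set alone, an acinar covariate and leaving out each array.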

Additional observations from a re-analysis of the deposited data

Results flagged for a closer look

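Each of the 9 laminin genes was checked in both groups for an array far from the others by Dixon's test, 18 groups of 6 arrays in all, of which chance flags about 1 in 20. The exception was Lamc1 in angiogenic replicate 5, at a log2 level of 9.84. Its gap to the next array was 0.626 of the range of the group, just above the critical value for a group of 6. Without this array the log2 difference of Lamc1 was 0.69 (limma adjusted p = 6.34e-06).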

How the results depend on the processing

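Under the alternatives run, 5 or 6 laminin genes were higher and none was lower. Of the 8 pairs, which all share the Lama4 values, 6 to 8 favoured Lama4. Lama4, Lama2, Lamc1, Lamb1 and Lamb2 kept their direction and call in all 25 alternatives each. The log2 difference of Lama4 ranged from 0.84 to 0.93. Lama5 lost its call in replicates 1 to 3 alone and in 8 fits without 1 array. The difference of Lamb3, near 0, changed sign without passing with array weights (-0.0080), median centring (-0.011), replicates 4 to 6 alone (-0.0039) and in 3 fits without 1 array (range -0.016 to 0.025); the cause was not tested. Leaving out genes dimmer than the median removed Lama1, Lama3 and Lamb3, so they have no value there. All genes higher numbered 708 and lower 189, and 1172 and 547 with the array set as a term, 1529 and 1385 by the methods' t-test at its unadjusted threshold, 586 and 180 after adjustment. Lower genes numbered 66 in replicates 1 to 3 alone and 110 without angiogenic replicate 6, and higher genes 467 without dim genes. The receptor list gave 2 calls in place of 4 under median centring, in replicates 1 to 3 alone and in 6 fits without 1 array. The replicate numbers of the labels showed no clear pairing of the arrays. Deviations from the group means of arrays with the same number correlated at 0.03 to 0.54. Those of arrays with another number in the same set correlated at 0.16 to 0.60. Of 6 angiogenic arrays, 2 were most like the array of their own number. The deviations still hold the difference between the sets, so this check cannot exclude a pairing. With the replicate block, 6 laminin genes were higher, and of all 19938 genes 1058 were higher and 449 lower.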
